A study of Mus musculus with 58 samples.

Results

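The tumour suppressor p53, encoded by Trp53, and 9 genes whose transcription it controls were followed in prefrontal cortex of young mice by bulk RNA sequencing. The 10 genes were chosen by symbol from the 18088 genes of the deposited table: Trp53, its inhibitor Mdm2, the cell cycle genes Cdkn1a and Ccng1, the death and stress genes Fas, Bax, Trp53inp1, Phlda3 and Eda2r, and the RNA-binding zinc finger gene Zmat3. Earlier results of these data were known when they were chosen. Animals were C57BL/6J males and females, labelled as heterozygotes for Kmt5b, a histone methyltransferase gene (HT), or as wild-type (WT). Pups received vehicle, the antidepressant fluoxetine or lithium through the dam's milk on postnatal days 3 to 24 and were sampled on day 25. WT lithium had 8 libraries, and the other 5 combinations of genotype and treatment (WT with vehicle or fluoxetine, HT with vehicle, fluoxetine or lithium) had 10 each. The sexes were equal in number in each group.

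p53 is a transcription factor that is kept low in unstressed cells because MDM2, itself a p53 target, marks it for degradation. When DNA damage or other stress stabilises the protein, it binds a pair of short half-sites near its target genes and raises the transcription of genes for cell cycle arrest, repair and programmed death. In neurons, which no longer divide, p53 and its death genes are known chiefly from injury and from the loss of surplus cells during development. Regulation of p53 is largely at the level of the protein, which was not measured here.

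Promoter windows of 4 genes are shown because their genes moved with a drug or hold the clearest p53 motif. Each is the 250 bases upstream of a RefSeq start (GRCm38.p6), written 5′ to 3′ on the gene's strand, and capitals mark matches to the p53 half-site consensus, 10 bases long. The consensus is its own reverse complement, so 1 search covers both strands. Cdkn1a (chr17:29090729-29090978, plus strand) holds 2 half-sites with 12 bases between them. Only exact matches were searched. The 10 bases directly after its second half-site, tgacatgttc, miss the consensus at 1 base and are not marked. Mdm2 (chr10:117710759-117711008, minus strand) and Ccng1 (chr11:40755287-40755536, minus strand) hold 1 each, and Fas (chr19:34290409-34290658, plus strand) holds none. Sequence outside these 250 bases, introns included, was not searched, so a window without a match does not show a gene without a site.
Cdkn1a: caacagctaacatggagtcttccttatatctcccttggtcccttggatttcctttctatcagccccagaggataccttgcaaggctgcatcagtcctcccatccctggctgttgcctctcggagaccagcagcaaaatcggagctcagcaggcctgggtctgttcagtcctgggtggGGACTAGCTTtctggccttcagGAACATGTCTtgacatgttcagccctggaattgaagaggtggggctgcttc
Mdm2: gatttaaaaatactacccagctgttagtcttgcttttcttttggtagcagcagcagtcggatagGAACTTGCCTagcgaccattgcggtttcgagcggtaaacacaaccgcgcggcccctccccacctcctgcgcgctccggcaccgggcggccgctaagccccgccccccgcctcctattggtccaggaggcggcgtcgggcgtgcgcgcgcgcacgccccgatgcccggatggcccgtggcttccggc
Ccng1: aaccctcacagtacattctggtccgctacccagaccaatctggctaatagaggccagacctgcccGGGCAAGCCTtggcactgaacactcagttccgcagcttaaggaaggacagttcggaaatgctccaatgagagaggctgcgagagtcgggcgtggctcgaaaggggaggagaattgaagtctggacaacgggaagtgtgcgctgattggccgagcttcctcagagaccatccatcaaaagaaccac
Fas: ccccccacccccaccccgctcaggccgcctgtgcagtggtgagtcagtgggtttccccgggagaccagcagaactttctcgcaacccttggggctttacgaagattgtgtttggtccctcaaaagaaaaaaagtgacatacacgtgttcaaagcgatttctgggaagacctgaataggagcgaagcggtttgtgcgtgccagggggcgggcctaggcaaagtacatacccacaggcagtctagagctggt

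The promoter table matched 8 of the 10 genes with 9 windows, since Cdkn1a has 2 starts in it. Trp53inp1 and Zmat3 had no window and were not searched. A half-site stood in 5 of these 9 windows and in 7.13% of all 32851 windows. Counting back from the start, the half-sites of Cdkn1a lay at -73 to -64 (GGACTAGCTT) and -51 to -42 (GAACATGTCT). A pair of half-sites at most 13 bases apart was found in 21 windows of the table, or 0.0639%, and among the 8 matched genes only in 1 of the windows of Cdkn1a. The window of Mdm2 had GAACTTGCCT from -186, that of Ccng1 GGGCAAGCCT from -185, that of Trp53 GGACTTGCCC from -75 and that of Bax AGGCAAGCTT from -201. The windows of Phlda3 and Eda2r and that of the other Cdkn1a start held none. A match describes the letters of these windows and not binding, which was not measured.

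Depth was 23.5 to 38.6 M reads per library, with a median of 27.6 M, and 1 read was worth 0.75 to 1.27 normalised counts. Kmt5b RNA, read to check the genotype labels, was 1654 ± 137 in WT (SD, n = 28) and 1734 ± 98.3 in HT (SD, n = 30), a log2 difference of 0.07 with an adjusted p of 0.186 by limma. It was not lower in the libraries labelled HT, so every genotype in the text rests on the label. Markers of cortical neurons were high in every group, with summed counts of 43198 to 72178 per library. Olfactory bulb markers (Doc2g, Cdhr1, Eomes and Tbx21) split the libraries: 10 had a mean log2 level of 5.01 or lower and the other 48 of 6.77 or higher. The 10 were 3 HT fluoxetine, 3 HT lithium, 3 WT vehicle and 1 WT fluoxetine library, and the levels of Cdkn1a, Trp53inp1, Zmat3 and Phlda3 moved with this level. In bulk tissue, fewer cells of a type and less RNA per cell cannot be told apart.

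The 10 genes spanned a wide range of levels per length of exon. The order of mean normalised count per kb (SD, n = 58) began with Bax at 546 ± 50.6 and Ccng1 at 528 ± 43.6. These neighbours did not differ beyond their spread, Bax being above Ccng1 in 35 of 58 libraries. Zmat3 at 357 ± 25.5, Cdkn1a at 320.4 ± 53.9, Phlda3 at 279 ± 37.0 and Mdm2 at 263 ± 14.6 followed. Within this run each gene was above the next in 41, 39 and 40 of 58 libraries, so the neighbours again overlapped. Trp53 stood lower, at 116 ± 7.39, and Trp53inp1 next to it at 101 ± 20.1, below Trp53 in 43 libraries. Fas, at 18.5 ± 6.70, and Eda2r, at 1.29 ± 0.536, were each below the gene before them in all 58 libraries. Zmat3 had the most counts of the 10 genes, 4081 per library on average, but its exons are also the longest, and per kb it stood below Bax and Ccng1.

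**Figure D1:**
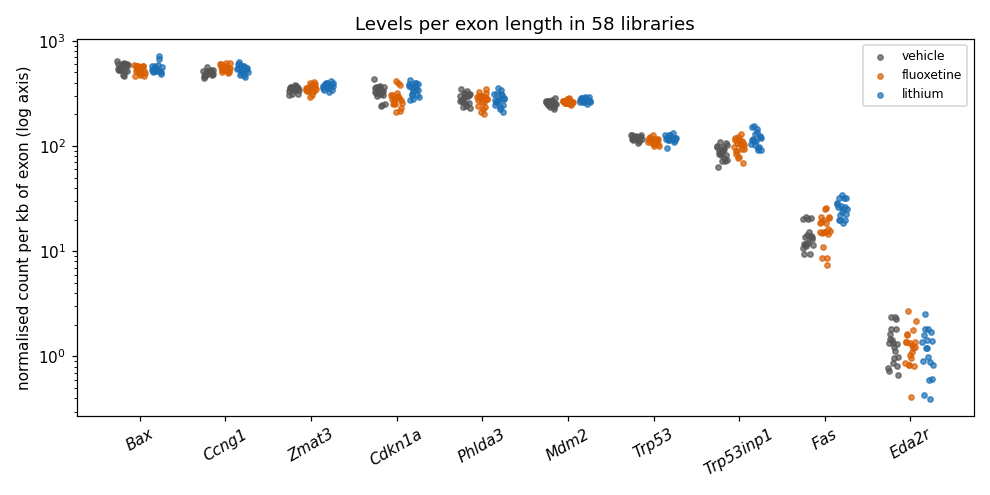
Normalised count per kb of exon (log axis) of the 10 genes, ordered by their mean, with 1 point per library and colours for treatment. Bax and Ccng1 lead, Fas and Eda2r lie far below the rest, and the lithium points of Fas lie mostly above its vehicle points.

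Lithium raised Fas in both genotypes, and it raised Trp53inp1, Ccng1 and Mdm2 in HT mice. These are means over the sexes, and for Ccng1 the HT value was 0.30 in females and 0.05 in males. The Mdm2 difference was about as large in WT, where it did not pass, and its call in HT held in 9 of 14 alternative fits. Fluoxetine raised Ccng1 in both genotypes and lowered Cdkn1a in HT mice. The Ccng1 call in WT held in 7 of 14 alternatives and the Cdkn1a call in HT in 12, and both were lost without certain single libraries. No drug effect on these genes differed between the genotypes past the test. Trp53 itself changed little with lithium. With fluoxetine it fell past the test only in the average over the genotypes, a call that held in 10 of 14 alternatives. Genotype moved none of the genes past the test. The threshold was an adjusted p of 0.05 by limma, with Benjamini-Hochberg adjustment over the 16669 genes whose mean count reached 10. Eda2r, at a mean of 7.63, fell below that limit, so 9 of the 10 genes were tested.

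With lithium, 4 of 9 genes rose and 0 fell in HT, where 14.1% of all genes tested passed, 7.46% up and 6.61% down. In WT, 1 of 9 rose, where 3.34% passed, 1.95% up and 1.39% down. Without WT lithium female 3, WT vehicle female 2 or WT vehicle male 3 the WT count was 2, with Mdm2 as the other gene. The median log2 difference of the 9 genes was 0.10 in HT and 0.09 in WT, beside -0.0015 and -0.0013 over all genes tested. Since the genes were chosen with earlier results of these data known, such counts and medians describe these genes and are no test of the set. With fluoxetine, 1 gene rose and 1 fell in HT, where 12.8% of all genes passed, 6.84% up and 5.96% down. In WT 1 rose, where 7.39% passed, 3.98% up and 3.41% down. Both drugs were compared with the same vehicle libraries, so their differences are not independent. A comparison averaged over the genotypes was added after the data were seen. In it, lithium raised 5 of 9 genes and lowered 0, where 14.8% of all genes passed, 8.04% up and 6.8% down. Fluoxetine raised 2 and lowered 2, where 23.5% passed, 11.5% up and 12% down.

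**Figure D2:**
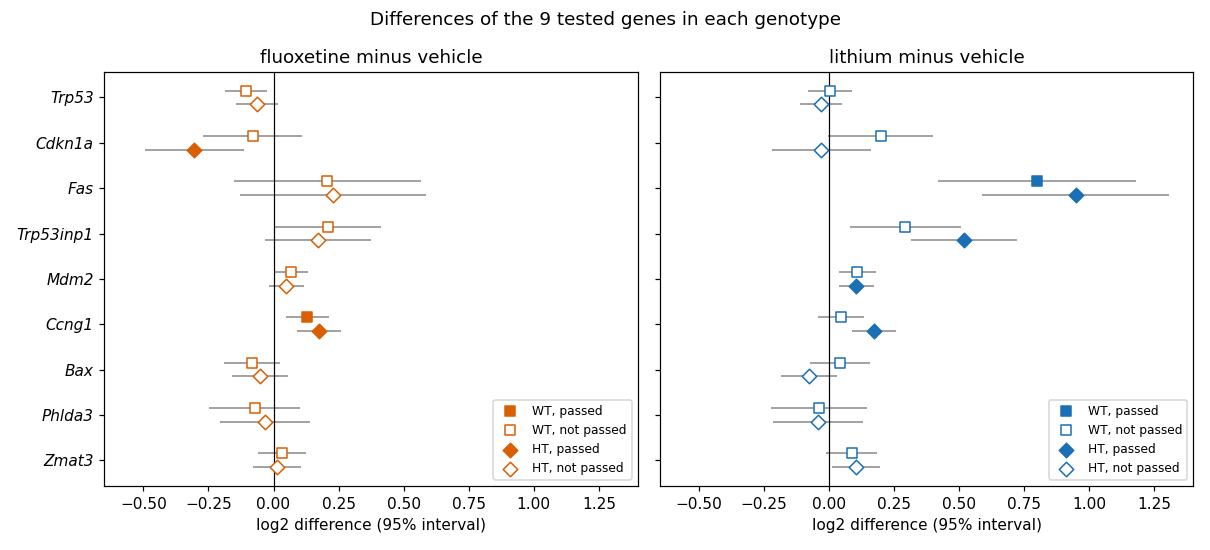
Log2 difference from vehicle (points) with its 95% interval (bars) for the 9 tested genes in WT (squares) and HT (diamonds), fluoxetine at left and lithium at right, filled where the test was passed. Lithium moved Fas furthest, by 0.80 in WT and 0.95 in HT, and Cdkn1a with fluoxetine in HT is the 1 filled point below 0.

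Trp53 (chr11:69580359-69591873, plus strand; GRCm38 throughout) had 435, 476 and 516 normalised counts as lowest, median and highest in WT vehicle and 406, 446 and 470.1 in WT fluoxetine. All 10 WT fluoxetine libraries were below the WT vehicle mean and 4 were below every WT vehicle library, but the ranges overlapped. In HT vehicle the values were 463, 486 and 515, and in HT fluoxetine 436, 469 and 514, with 9 of 10 fluoxetine libraries below the vehicle mean. The log2 difference was -0.11 in WT (SE 0.040, limma adjusted p = 0.0901) and -0.06 in HT (SE 0.040, adjusted p = 0.311). Averaged over the genotypes it was -0.08 (SE 0.028, adjusted p = 0.0255), which passed. That call ended in a fit with each library's exon length slope, a measure of how its deviations follow the length of genes (adjusted p = 0.103). It ended also on the 54 libraries with recovered read counts by limma (0.0595), edgeR (0.0693) and DESeq2 (0.0606). With lithium Trp53 differed from vehicle by 0.00 in WT (95% interval -0.08 to 0.09) and by -0.03 in HT (-0.11 to 0.05), a narrow range around 0.

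Mdm2 (chr10:117688875-117710758, minus strand), the ubiquitin ligase gene that p53 induces and that holds p53 down, had the smallest SD relative to its mean of the 10 genes. Its lowest, median and highest counts were 1197, 1294 and 1367 in HT vehicle and 1334, 1388 and 1481 in HT lithium. Every HT lithium library was above the HT vehicle mean, and 6 of 10 were above every HT vehicle library. The difference was 0.10 (SE 0.033, limma adjusted p = 0.0275). It was not called on 54 libraries by limma (adjusted p = 0.153), edgeR (0.134) or DESeq2 (0.134), nor in the fit in the fit with the exon length slope (0.153, a value of 0.07) or without the 10 libraries low in olfactory bulb markers (0.0666). It also ended without HT lithium female 3, female 4 or male 5 or HT vehicle male 5, with adjusted p up to 0.0718. In WT, Mdm2 went from 1133, 1271 and 1464 in vehicle to 1267, 1388 and 1472 in lithium, a difference of 0.11 (SE 0.035, adjusted p = 0.0755) that did not pass. Averaged over the genotypes the difference was 0.11 (SE 0.024, adjusted p = 0.00151), and it passed under all 14 alternative fits and without any single library. With fluoxetine the averaged difference of Mdm2 was 0.06 (adjusted p = 0.0634), and it passed in a fit that held the olfactory bulb level (0.0366) and without HT vehicle male 3, WT fluoxetine female 4, WT fluoxetine male 2, WT vehicle female 2 or WT vehicle male 3 (down to 0.0113).

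Cdkn1a (chr17:29090976-29100727, plus strand) encodes p21, the cyclin-dependent kinase inhibitor through which p53 halts the cell cycle. In HT it had 1071, 1231 and 1529 counts in vehicle and 748, 985 and 1468 in fluoxetine. Of 10 HT fluoxetine libraries 9 were below the vehicle mean and 7 below every vehicle library, while HT fluoxetine male 4, at 1468, was the exception at the top. The difference was -0.30 (SE 0.095, limma adjusted p = 0.0274), a ratio of 0.81. The call ended without HT fluoxetine male 5 or HT vehicle female 1, with adjusted p up to 0.0682, and by edgeR on 54 libraries (adjusted p = 0.0641). Without the 10 libraries low in olfactory bulb markers it was -0.22 (adjusted p = 0.0996), and with that level in the fit -0.17, below the size of the main value by more than 1.5 times. Cdkn1a rose with the olfactory bulb level, by 0.0850 per log2 unit (adjusted p = 5.18e-09), a measure with which 41.9% of all genes rose or fell.

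In WT, Cdkn1a was at 849.7, 1137 and 1309 in vehicle and at 769.8, 1027 and 1413 in fluoxetine, a difference of -0.08 (adjusted p = 0.633), and the effect in HT minus that in WT was -0.23 (95% interval -0.49 to 0.04, adjusted p = 0.525). With lithium it had 1034, 1279 and 1413 counts in WT and 974, 1223 and 1502 in HT. The differences from vehicle were 0.20 in WT (SE 0.10, adjusted p = 0.322) and -0.03 in HT (SE 0.095, adjusted p = 0.862). The arrest gene thus did not pass with lithium in the animals in which Fas and Trp53inp1 did. Averaged over the genotypes, the difference with fluoxetine was -0.19 (SE 0.067, adjusted p = 0.0313). Lithium exceeded fluoxetine for Cdkn1a by 0.27 in HT (adjusted p = 0.0662) and 0.28 in WT (adjusted p = 0.0963). These passed in a fit that held the olfactory bulb level (0.00637 and 0.0122), in HT without HT fluoxetine male 4, HT lithium female 4 or WT fluoxetine male 1 (down to 0.0111), and in WT without WT fluoxetine male 1 (0.0293). The call of the fluoxetine effect averaged over the genotypes ended in the fit with the exon length slope (adjusted p = 0.119), by edgeR (0.0519), and without HT fluoxetine male 5, HT vehicle female 1, WT fluoxetine male 2, WT fluoxetine male 4 or WT vehicle female 1 (up to 0.0577).

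Ccng1 (chr11:40748552-40755311, minus strand), which encodes cyclin G1, a p53-induced cyclin that acts with phosphatase 2A on MDM2, passed with both drugs in HT, and no other of the 9 tested genes did. Its lowest, median and highest counts were 1567, 1716 and 1969 in HT vehicle, 1769, 1943 and 2106 in HT fluoxetine and 1644, 1957 and 2191 in HT lithium. All 10 fluoxetine and 9 of 10 lithium libraries were above the vehicle mean, with overlap of the ranges. The differences were 0.18 with fluoxetine (SE 0.042, limma adjusted p = 0.00451) and 0.17 with lithium (SE 0.042, adjusted p = 0.00374). Both passed under all 14 alternatives and without any single library. The lithium value is a mean over the sexes. It was 0.30 in HT females (interval 0.18 to 0.41) and 0.05 in HT males (interval -0.07 to 0.17). These intervals did not overlap, and that of the males spanned both directions, so a rise was not shown in HT males alone. A sex difference within HT was not tested. In WT, Ccng1 had 1674, 1756 and 1853 counts in vehicle, and 6 of 10 fluoxetine libraries, at 1739, 1922 and 2147, were above all of these. That difference was 0.13 (SE 0.042, adjusted p = 0.0452), near the threshold: 7 of 14 alternatives ended the call, with adjusted p up to 0.224. It ended also without WT fluoxetine female 1, 2 or 3 or male 4 or 5, or WT vehicle female 1, 2 or 4 or male 2, 3 or 4 (up to 0.114).

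WT lithium libraries lay at 1594, 1828 and 2027 for Ccng1, 0.05 above vehicle (SE 0.044, adjusted p = 0.688). The lithium effect in HT exceeded that in WT by 0.13 (95% interval 0.01 to 0.25, unadjusted p = 0.0395, adjusted p = 0.332), so a difference between genotypes was not shown. Averaged over the genotypes, Ccng1 rose by 0.15 with fluoxetine (SE 0.0295, adjusted p = 0.000193) and by 0.11 with lithium (SE 0.030, adjusted p = 0.00982). Both calls held under all 14 alternatives.

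Fas (chr19:34290666-34327772, plus strand) encodes the death receptor CD95, which starts caspase activation when it binds its ligand. It had 19.4, 24.4 and 43.7 counts in HT vehicle and 40.6, 54.7 and 70.8 in HT lithium. All 10 lithium libraries were above the vehicle mean and 8 were above every vehicle library, and the overlap came from HT vehicle female 2 at 41.6 and HT vehicle male 2 at 43.7. The log2 difference was 0.95 (SE 0.178, limma adjusted p = 0.000319), a ratio of 1.93. In WT, Fas went from 19.5, 28.3 and 42.3 in vehicle to 38.5, 51.7 and 66.0 in lithium, with all 8 lithium libraries above the vehicle mean and 6 above every vehicle library. The difference there was 0.80 (SE 0.189, adjusted p = 0.00895), a ratio of 1.74, and the ratios are on the scale of count plus 1, which understates the change of a low gene.

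The lithium effects on Fas in HT and WT differed by 0.15 (95% interval -0.37 to 0.67, unadjusted p = 0.573), an interval that spans larger effects in either genotype. In HT the call held under each of the 13 alternatives in which Fas was tested (0.76 to 1.04) and without any single library. In WT it ended without the 10 libraries low in olfactory bulb markers (0.76, adjusted p = 0.0551), where 7 WT vehicle and 8 WT lithium libraries remained, and held otherwise. Fas counts in fluoxetine libraries were 15.2, 35.7 and 53.1 in WT and 17.9, 31.7 and 43.3 in HT, and the differences from vehicle, 0.21 and 0.23, did not pass (adjusted p = 0.485 and 0.421). Lithium exceeded fluoxetine by 0.72 in HT (adjusted p = 0.0075), with 8 of 10 lithium libraries above every fluoxetine library. In WT it exceeded fluoxetine by 0.59 (adjusted p = 0.057), which passed by DESeq2 (0.0455), with quantile normalisation (0.0319) and in a fit that held the olfactory bulb level (0.0421). Without HT fluoxetine female 5, WT fluoxetine female 1 or 2 or WT lithium female 1 or 2 it also passed, with adjusted p down to 0.0296.

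**Figure D3:**
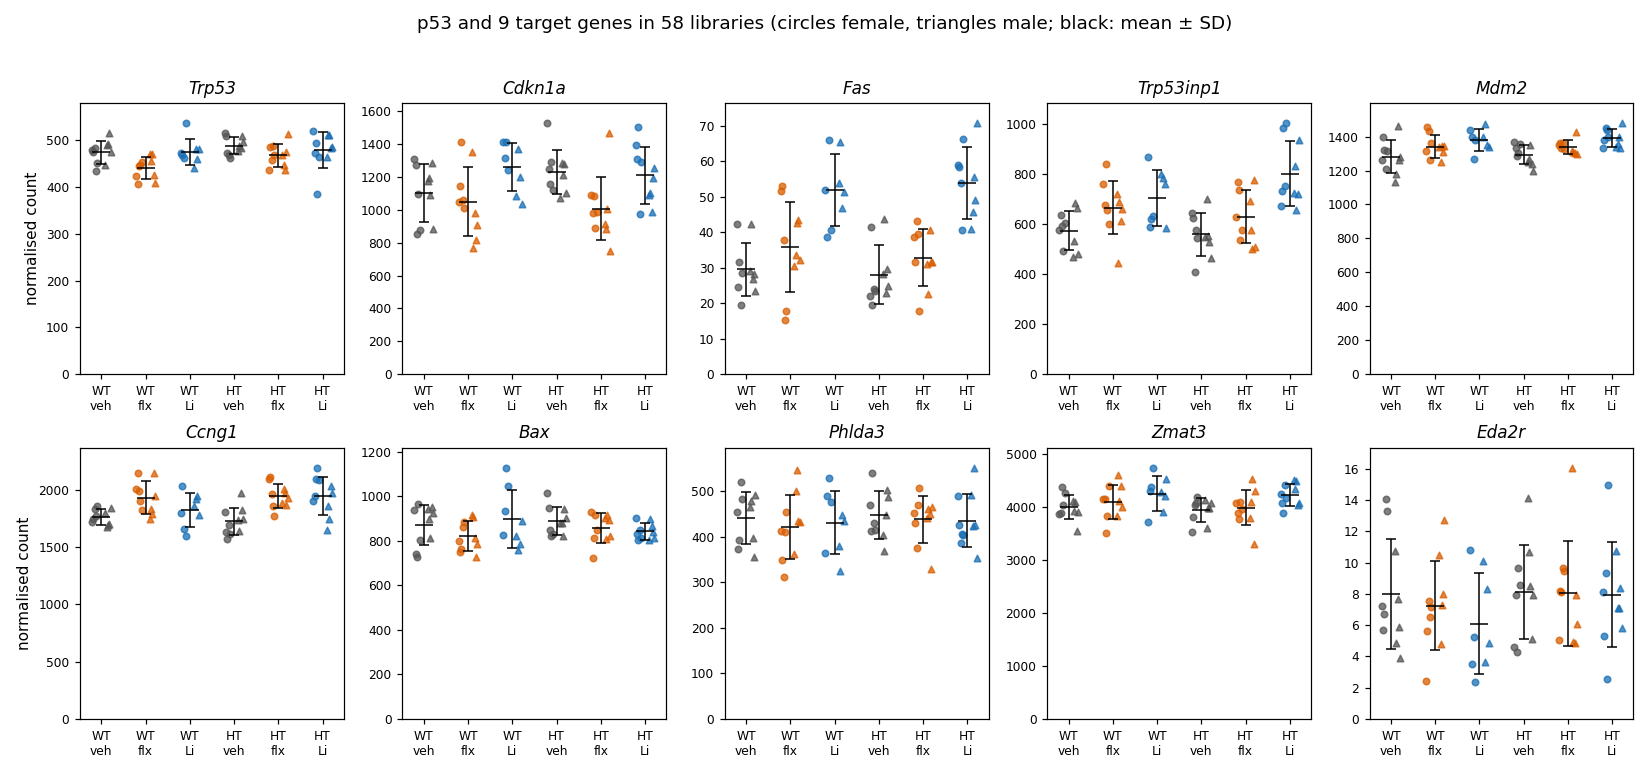
Normalised counts of the 10 genes in each of 58 libraries by genotype and treatment (veh, vehicle; flx, fluoxetine; Li, lithium), circles for females and triangles for males, with mean ± SD in black and each axis from 0. Fas in the lithium groups (38.5 to 70.8) stands above most vehicle libraries (19.4 to 43.7), and Trp53inp1 is highest in HT lithium.

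Trp53inp1 (chr4:11156431-11174379, plus strand) encodes a nuclear protein that helps p53 to be activated and also takes part in autophagy. It had 410.0, 551 and 701 counts in HT vehicle and 656, 744 and 1007 in HT lithium. All 10 lithium libraries were above the vehicle mean, and the ranges met only at HT vehicle male 2 (701), which 8 of 10 lithium libraries exceeded. The difference was 0.52 (SE 0.101, limma adjusted p = 0.000449), a ratio of 1.43, and it passed under all 14 alternatives and without any single library. In WT, counts were 470.2, 585 and 687 in vehicle and 587, 698 and 869.9 in lithium, a difference of 0.29 (SE 0.107, adjusted p = 0.126) that did not pass, although all 8 lithium libraries were above the vehicle mean. The lithium effect in HT minus that in WT was 0.22 (95% interval -0.07 to 0.52, adjusted p = 0.492).

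Fluoxetine libraries had 447, 669 and 842 counts of Trp53inp1 in WT and 501, 604 and 779.6 in HT, between vehicle and lithium in their medians. The differences from vehicle were 0.21 (adjusted p = 0.188) and 0.17 (adjusted p = 0.269), and the latter was 0.29 and passed in a fit that held the olfactory bulb level (adjusted p = 0.00613). Lithium exceeded fluoxetine in HT by 0.35 (SE 0.101, adjusted p = 0.0249), beside 6.79% of all genes that passed there. This ended without the 10 libraries low in olfactory bulb markers (0.30, adjusted p = 0.124) and without HT fluoxetine female 4 or male 5 or HT lithium female 3, female 5 or male 5 (up to 0.0595). In WT, where 4.21% of all genes passed between the drugs, lithium exceeded fluoxetine by 0.08 (adjusted p = 0.69), and 0 of 9 genes passed by limma. At an unadjusted p under 0.05 by limma there were 4 of 9, beside 3543 of all 16669 genes. Trp53inp1 rose with the olfactory bulb level by 0.0792 per log2 unit (adjusted p = 1.58e-06) and with the exon length slope by 0.107 per SD (adjusted p = 0.0136). Averaged over the genotypes, lithium raised it by 0.41 (SE 0.0735, adjusted p = 8.40e-05) under every alternative.

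With fluoxetine, Trp53inp1 averaged over the genotypes rose by 0.19 (SE 0.071, adjusted p = 0.0456), at the edge of the threshold. Of 14 alternatives 6 ended this call, and with the exon length slope the value was 0.10 (adjusted p = 0.39). It also ended without any of 22 libraries (up to 0.0865): HT fluoxetine female 1, 2 and 3 and male 1 and 4, HT vehicle female 3 and 5 and male 1, 3, 4 and 5, WT fluoxetine female 1 and 3 and male 1, 3, 4 and 5, and WT vehicle female 1 and 4 and male 1, 2 and 5.

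Bax (chr7:45461697-45466898, minus strand), the mitochondrial pore gene that carries out intrinsic apoptosis, did not pass in any comparison. Its counts lay between 723 and 1128 in all libraries, with medians of 911 in WT vehicle, 805 in WT fluoxetine, 857 in WT lithium, 879 in HT vehicle, 871 in HT fluoxetine and 836 in HT lithium. The differences from vehicle ran from -0.08 (fluoxetine, WT) to 0.04 (lithium, WT). With lithium the difference was 0.24 in WT females (95% interval 0.07 to 0.40) and -0.16 in WT males (-0.32 to 0.01). Across genotypes the lithium effect on Bax in males minus that in females was -0.19 (95% interval -0.35 to -0.03, unadjusted p = 0.0205, adjusted p = 0.619). Bax fell with the exon length slope of a library, by 0.106 per SD (adjusted p = 2.55e-08), a measure on which 37.5% of all genes moved.

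Phlda3 (chr1:135766119-135769136, plus strand), an inhibitor of AKT signalling that p53 induces, had 311 to 551 counts and medians of 421 to 459 over the 6 groups. Its differences from vehicle were -0.03 to -0.07 with both drugs, with standard errors of 0.087 to 0.092, and did not pass. Its level fell with the olfactory bulb level, by 0.0525 per log2 unit (adjusted p = 0.000653). Eda2r (chrX:97333840-97377216, minus strand), a death-related receptor of the TNF receptor family, had 2.34 to 16.1 counts, a few reads per library. In a fit with no lower limit on counts its largest difference from vehicle was -0.38, with lithium in WT (SE 0.265, adjusted p = 0.538), and at this depth differences of that size could not be told from replicate spread.

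Zmat3 (chr3:32334792-32366014, minus strand), whose product binds RNA and affects splicing and mRNA stability, had 3523, 4012 and 4186 counts in HT vehicle and 3886, 4216 and 4518 in HT lithium. In WT the values were 3544, 3983 and 4379 in vehicle and 3713, 4296 and 4746 in lithium. Lithium libraries above the vehicle mean numbered 9 of 10 in HT and 6 of 8 in WT, with wide overlap. The differences were 0.10 in HT (SE 0.046, adjusted p = 0.124) and 0.09 in WT (SE 0.049, adjusted p = 0.389). Averaged over the genotypes Zmat3 passed, at 0.09 (SE 0.033, adjusted p = 0.0465), but 6 of 14 alternatives ended the call, with adjusted p up to 0.0856. The call also ended without any of 23 libraries (up to 0.0933): HT lithium female 1, 4 and 5 and male 1, 2 and 3, HT vehicle female 1 and 2 and male 2, 3 and 4, WT lithium female 2, 3 and 4 and male 1, 3 and 4, and WT vehicle female 1, 2 and 4 and male 2, 4 and 5. With fluoxetine the differences were 0.03 in WT and 0.01 in HT (adjusted p = 0.69 and 0.884). In a fit that held the olfactory bulb level the lithium difference in WT passed (0.13, adjusted p = 0.0327).

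Genotype moved none of the 9 tested genes past the threshold. Between the libraries labelled HT and WT, 0 passed by limma with vehicle, fluoxetine, lithium and the mean of the treatments, where 0.048%, 0.612%, 0.06% and 0.468% of all genes passed. By edgeR and DESeq2 on 54 libraries 0 passed in each as well. At an unadjusted p under 0.05 by limma the counts were 0, 1, 1 and 0, beside 2035, 2319, 1683 and 1762 of all 16669 genes. The 2 genes were Trp53 with fluoxetine, at 0.09 (95% interval 0.01 to 0.17, adjusted p = 0.31), and Ccng1 with lithium, at 0.09 (0.01 to 0.18, adjusted p = 0.464), both chosen after their values were seen. Averaged over treatments the interval of HT minus WT was -0.03 to 0.05 for Mdm2 and -0.24 to 0.18 for Fas, the narrowest and the widest of the 9. A drug effect that differed between genotypes passed for 0 genes by limma, edgeR and DESeq2, against 0 with fluoxetine and 1 with lithium (Ccng1) at an unadjusted p under 0.05. Over all genes 0.042% and 0% passed by limma, and 1858 and 2320 of 16669 had an unadjusted p under 0.05.

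Sex, as a mean over genotypes and treatments, moved none of them past the threshold either. Between males and females 0 of 9 passed by limma, edgeR and DESeq2, beside 0.132% of all genes past the threshold by limma. At an unadjusted p under 0.05, 1376 of all 16669 genes stood beside 1 of the 9. That gene was Cdkn1a, at 1094 ± 185 in males and 1183 ± 191 in females (SD, n = 29 each), a male minus female difference of -0.12 (adjusted p = 0.583). Drug effects that differed between the sexes were read as a mean over the genotypes, a comparison added after the data were seen. In it 0 of 9 passed, beside 0% of all genes for fluoxetine and 0.018% for lithium. At an unadjusted p under 0.05 by limma there were 0 and 1 (Bax), beside 727 and 1133 of all 16669 genes. The lithium effect on Fas was 1.10 in HT females, 0.80 in HT males, 0.74 in WT females and 0.86 in WT males. For Ccng1 the lithium effect was 0.30 in HT females (interval 0.18 to 0.41) and 0.05 in HT males (-0.07 to 0.17). In WT it was -0.02 in females (-0.14 to 0.11) and 0.11 in males (-0.02 to 0.23).

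Between animals of 1 group the genes did not all vary in the same direction. After the mean of each library's own group was taken off, Zmat3 went down where Cdkn1a went up, with Pearson's r = -0.738 and Spearman's rho = -0.73 over 58 libraries. Both had a permutation p of 1e-05, the smallest that 100000 resamples can give, and an adjusted p of 9.00e-05 over 9 relations. Phlda3 also went against Cdkn1a (r = -0.478, permutation p = 0.00079, adjusted p = 0.00237; rho = -0.385, permutation p = 0.00708, adjusted p = 0.0212). Trp53inp1 went with it (r = 0.52, permutation p = 0.00026, adjusted p = 0.00117; rho = 0.472, permutation p = 0.00072, adjusted p = 0.00324). The other 6 genes, Trp53 (r = 0.218), Fas (0.218), Mdm2 (0.214), Bax (0.152), Eda2r (0.137) and Ccng1 (-0.0737), did not pass (permutation adjusted p of r from 0.245 to 0.576). Correlations within groups were computed for these 9 genes only, so the share of all genes with such an r is not known. Of all genes tested, 41.9% rose or fell with the olfactory bulb level, as Cdkn1a did. The relations are therefore not shown to be particular to p53 targets.

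Without HT fluoxetine male 5 and WT fluoxetine male 2, the libraries farthest from the median of Cdkn1a, r was -0.714 for Zmat3, -0.457 for Phlda3 and 0.459 for Trp53inp1. Among the 48 libraries with the higher olfactory bulb level it was -0.771, -0.523 and 0.43 (permutation adjusted p = 9.00e-05, 0.0072 and 0.0072), and the other 10 were too few to test within groups. With the olfactory bulb level taken off all 58, r was -0.457 for Zmat3, -0.161 for Phlda3 and 0.0420 for Trp53inp1. Zmat3 fell with that level by 0.0367 per log2 unit (adjusted p = 8.83e-07), as Phlda3 did, while Cdkn1a and Trp53inp1 rose with it. The part of olfactory bulb tissue in these relations was not tested beyond these values.

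**Figure D4:**
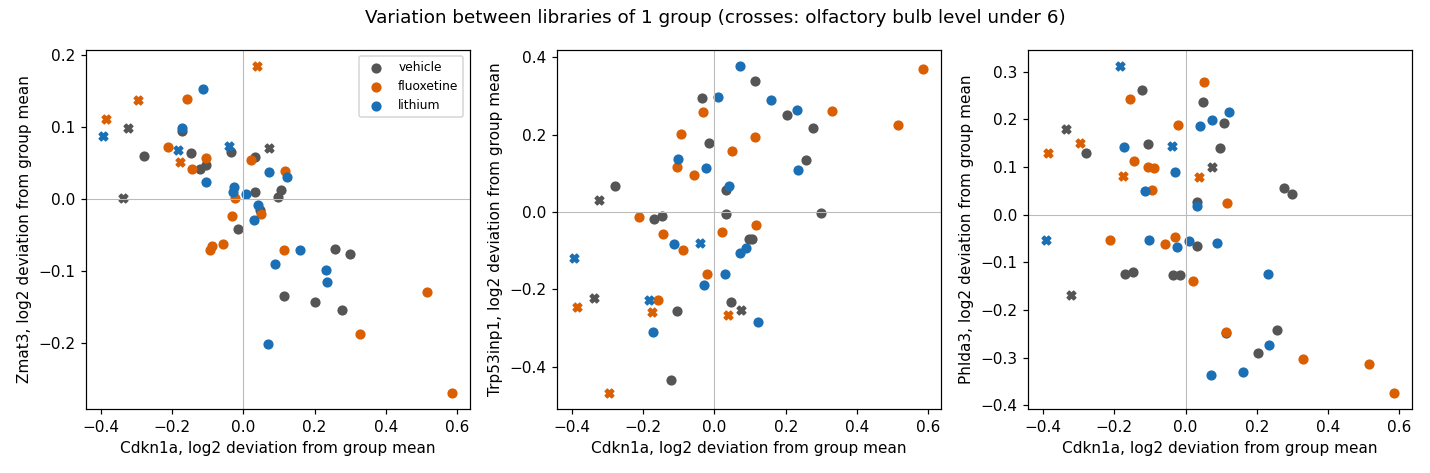
Deviation from the mean of the library's own group, in log2 units, of Zmat3, Trp53inp1 and Phlda3 (vertical axes) against that of Cdkn1a (horizontal axes), 58 libraries, crosses where the olfactory bulb level was under 6. Zmat3 falls along Cdkn1a (r = -0.738), and most crosses lie at low Cdkn1a.

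The 5 genes outside the 10 whose levels were most like that of Cdkn1a over the 58 libraries were Cbln4 (Pearson's r = 0.828), Akr1c18 (0.823), Fam196a (0.803), Mcub (0.799) and Dusp5 (0.795). These are descriptions, picked as the highest of 16669 genes in libraries that share groups and dissection.

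The wider p53 pathway was read as 5 lists in the comparisons averaged over the genotypes. Their counts stand beside the shares of all genes tested, of which 11.5% rose and 12% fell with fluoxetine, and 8.04% rose and 6.8% fell with lithium. With fluoxetine, 3 of 12 arrest genes fell and 0 rose, with a list median of -0.07 beside 0.000675 over all genes. These were Gadd45a, a growth arrest gene induced by DNA damage, at -0.42 (SE 0.071, limma adjusted p = 2.72e-05), Plk3, a stress-induced kinase gene, at -0.40 (SE 0.075, 0.000121), and Btg2, an antiproliferative immediate early gene, at -0.43 (SE 0.128, 0.0121). Of 16 apoptosis targets 2 rose and 2 fell (median -0.05), shares near those of all genes. Bbc3, which encodes the death protein PUMA, fell by 0.45 (SE 0.073, adjusted p = 1.49e-05), Dapk1, a death-associated kinase gene, rose by 0.15 (SE 0.033, 0.000865), and the cathepsin gene Ctsd fell by 0.07 (SE 0.023, 0.033).

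Of 27 tested metabolic, redox and other targets 5 fell and 0 rose with fluoxetine (median -0.05), led by Ddit4, an mTOR inhibitor gene, at -0.40 (SE 0.057, limma adjusted p = 1.51e-06), the phospholipid transfer gene Pltp at -0.22 (SE 0.047, 0.000527) and the adenylate kinase gene Ak1 at -0.07 (SE 0.019, 0.0079). Of the repair genes reported here, Rrm2b, a ribonucleotide reductase subunit gene, rose by 0.11 (SE 0.034, 0.015). Of 29 tested regulators 4 rose and 5 fell (median 0.03), near the 11.5% and 12% of all genes. Among them Mdm4, whose product also restrains p53, rose by 0.13 (SE 0.034, 0.00629), Ppm1d, the WIP1 phosphatase gene, fell by 0.13 (SE 0.036, 0.00703), and Trp53rka, a kinase gene with a near copy in Trp53rkb that could share its reads, fell by 0.21 (SE 0.041, 0.000216). The calls of Mdm4, Btg2, Rrm2b, Ak1 and Ctsd ended in the fit in the fit with the exon length slope (adjusted p = 0.242, 0.0779, 0.102, 0.149 and 0.43), and that of Ctsd also on 54 libraries. The Ctsd call ended too (up to 0.0619) without HT fluoxetine female 3 or male 4, HT vehicle male 4 or 5, WT fluoxetine female 3 or male 1, or WT vehicle female 1 or 4 or male 1 or 5.

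With lithium, genes that passed went both ways. No arrest gene rose and 1 of 12 fell (median -0.05): Rprm, a p53-induced cell cycle arrest gene, at -0.20 (SE 0.0705, limma adjusted p = 0.047), a call that 7 of 14 alternatives ended (up to 0.149). It also ended (up to 0.0972) without HT fluoxetine male 5, HT lithium female 2 or 3 or male 1, 4 or 5, HT vehicle female 2, 3 or 5 or male 1, 4 or 5, WT fluoxetine female 4 or male 5, WT lithium female 1 or male 1, 2 or 3, or WT vehicle female 3, 4 or 5 or male 2, 3 or 5. Of the apoptosis targets Dapk1 rose by 0.21 (SE 0.034, 1.17e-05) and Bbc3 fell by 0.29 (SE 0.075, 0.00522), with a median of -0.02 beside -0.00275 over all genes. PUMA's gene fell where the gene of the death receptor Fas rose. Of the 27 metabolic and other targets 4 rose and 3 fell (median 0.02), beside 8.04% and 6.8% of all genes. The sestrin genes Sesn1, at 0.16 (SE 0.030, 0.000262), and Sesn2, at 0.16 (SE 0.038, 0.00202), which act against oxidative stress and on mTOR, were among those that rose, and Pltp fell by 0.21 (SE 0.048, 0.00168).

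Of the repair genes reported here, Ercc5, a nuclease gene, rose by 0.10 (SE 0.029, limma adjusted p = 0.013), while Pcna, the replication clamp gene, fell by 0.10 (SE 0.033, 0.0424). The Pcna call ended under 6 of 14 alternatives (up to 0.189). It also ended (up to 0.105) without HT lithium female 2, 3 or 5 or male 1 or 3, HT vehicle female 1 or 2 or male 1 or 2, WT lithium female 2 or male 2 or 3, or WT vehicle female 1 or 4 or male 3, 4 or 5. Of the 29 regulators 3 rose and 2 fell (median 0.03), near the shares of all genes: the checkpoint kinase gene Chek1 rose by 0.29 (SE 0.071, 0.00313), Mdm4 rose by 0.13 (SE 0.0355, 0.00996) and Rpl11, a ribosomal gene with pseudogene copies whose protein binds MDM2, fell by 0.10 (SE 0.027, 0.0055). With the exon length slope in the fit Mdm4 and Rpl11 were not called (adjusted p = 0.211 and 0.112). Between the drugs, Gadd45a was higher with lithium than with fluoxetine by 0.45 in WT and 0.57 in HT (adjusted p = 0.00905 and 0.000164), and Plk3 by 0.59 and 0.56 (0.000978 and 0.00041). Of all genes tested 4.21% passed there in WT and 6.79% in HT. Both genes were named for low values in the same fluoxetine libraries, which favours such differences. Between genotypes, 1 gene of the 5 lists passed, Dapk1 with fluoxetine, lower in HT by 0.21 (SE 0.047, adjusted p = 0.0272), and it was chosen after its value was seen. Of all genes tested 0.612% passed in that comparison, and 1 gene is no result about the lists.

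**Figure D5:**
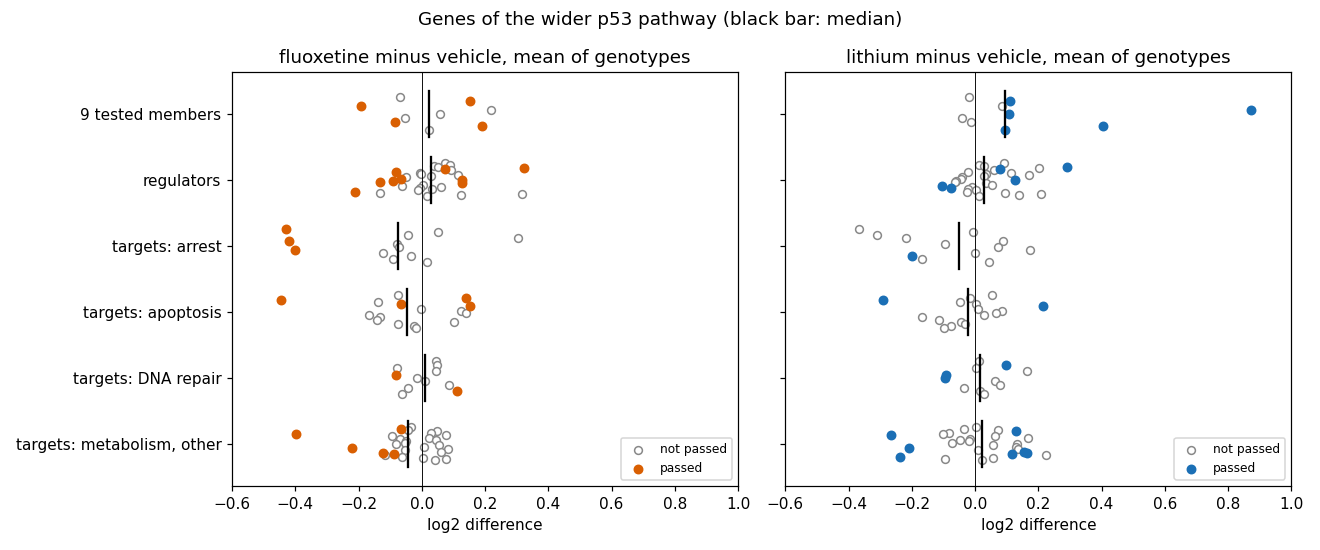
Log2 difference from vehicle averaged over the genotypes (horizontal axis) for the 9 tested genes and 5 lists of the wider p53 pathway, 1 point per gene, filled where the test was passed, with the list's median as a black bar. With fluoxetine, Gadd45a, Plk3 and Btg2 lie at -0.40 to -0.43 in the arrest row, and with lithium Fas lies furthest right at 0.87.

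Markers of other cells moved with some of these comparisons. Of all genes tested, 6.84% rose and 5.96% fell in HT fluoxetine, and 7.46% and 6.61% in HT lithium. In WT the shares were 3.98% and 3.41% with fluoxetine and 1.95% and 1.39% with lithium. Averaged over the genotypes they were 11.5% and 12% with fluoxetine and 8.04% and 6.8% with lithium. Counts of 1 marker in the averages stand near these shares. In HT fluoxetine, 5 of 10 oligodendrocyte, 3 of 10 microglia, 3 of 9 astrocyte and 2 of 10 endothelial and mural markers rose, and 0 of 4 olfactory bulb markers passed (median -1.55). Summed oligodendrocyte counts were 83129.6 to 200006 there and 63251 to 137846 in HT vehicle, and summed olfactory bulb counts were 157 to 10513 and 1218 to 6740.2. In HT lithium, 4 of 7 markers of proliferating cells fell (median -0.76), with sums of 154 to 309 against 281 to 532 in HT vehicle, and 5 of 10 endothelial and mural markers fell, with sums of 10775 to 12473 against 10784 to 13918. In WT lithium no proliferation or endothelial marker passed, with proliferation sums of 222 to 379.8 against 230.5 to 402 in WT vehicle, while Fas rose there too, and 1 of 7 neuron markers fell and 1 of 9 astrocyte markers rose. In WT fluoxetine, where Ccng1 rose, 2 of 10 endothelial and mural markers fell, with sums of 11136 to 13211 against 10945 to 15352 in WT vehicle, and 1 of 7 neuron and 1 of 9 astrocyte markers fell. In the averages over the genotypes, on which the wider lists were read, 4 of 10 oligodendrocyte markers rose and 2 of 10 endothelial and mural markers fell with fluoxetine, 1 of 9 astrocyte markers went each way and 1 of 4 tested choroid plexus and ependyma markers rose. With lithium, 2 of 7 proliferation, 3 of 10 endothelial and mural and 1 of 7 neuron markers fell and 1 of 9 astrocyte markers rose, beside the fall of Pcna. No marker of oligodendrocytes, endothelial cells or the olfactory bulb was at 0 in any library. The part of these cell types in the differences of the 10 genes and of the wider lists was not tested, beyond the fits with the olfactory bulb level given above.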

How the data were processed

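Libraries were stranded and poly(A)-selected, per the labels' protocols. The submitters' processing notes name Salmon 0.11.2, R 3.6.0, DESeq2 1.19.11 and GRCm38, and the annotation release is not given in the sources used here. The authors deposited 1 table of normalised signal, 18088 genes by 58 libraries. In each library all nonzero values (100%, tolerance 0.01) were whole multiples of 1 step, as counts divided by a size factor. Reads were recovered for the 54 libraries where the step could be told from 1. Counts of the other 4 (HT lithium male 3, HT vehicle female 2, male 1 and male 5) stayed out of edgeR 4.0.16 and DESeq2 1.42.0.

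Values were log2-transformed after adding 1. limma 3.58.1 (R 4.3.3) with a variance trend fitted 12 groups of genotype, treatment and sex over 58 libraries, weighting sexes equally, for genes with a mean of at least 10. The plan held a count test and this one, and the unit called for this one. The fits were tested on simulated data. GENCODE M21 gave symbols (18077 IDs, 11 without), positions and exon lengths. Cdkn2a and Gdf15 of the lists are not analysed here, and results of the DNA repair list are reported in part. The olfactory bulb level is the mean log2 value of 4 markers, and the exon length slope is the slope of a library's log2 deviations on log2 exon length. All 10 genes are named in every comparison, and up to 3 genes of each list, those with the smallest p. The 10 genes and the lists were chosen with earlier results of these data known. Alternatives were quantile normalisation, no variance trend, pseudocounts of 0.5 and 10, all genes or those with a mean of 100 or more, only the groups compared, a replicate block, both covariates, the tests on 54 libraries, leaving out each library, and, chosen after seeing the data, only libraries with an olfactory bulb level of at least 6. The labels give no litter, and pups treated through milk can share one, so p-values measure the spread between these libraries, and separate replicates differed by 2.95 to 58 times sampling noise in 112 pairs.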

Additional observations from a re-analysis of the deposited data

Results flagged for a closer look

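In 7 of 120 combinations of gene and group 1 library stood far from the other libraries of its group, about as many as the 1 in 20 that chance gives. Among higher ones, Trp53 was at 537 in WT lithium female 4 with the next library at 472, and Trp53inp1 at 869.9 in WT lithium female 1 with the next at 633. Fas was at 41.6 in HT vehicle female 2 with the next at 24.1, which is 1 of the 2 HT vehicle libraries that overlap HT lithium. Mdm2 was at 1426 in HT fluoxetine male 4 with the next at 1315, and Eda2r at 16.1 in HT fluoxetine male 1 with the next at 7.92. Among lower ones, Phlda3 was at 328 in HT fluoxetine male 4 with the next at 441, and Zmat3 at 3599 in HT vehicle male 2 with the next at 3979. HT fluoxetine male 4 was also the HT fluoxetine library with the highest Cdkn1a, 1468.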

How the results depend on the processing

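No call of the 10 genes or of the wider lists changed its direction under any alternative run. The lithium calls of Fas, Trp53inp1 and Ccng1 in HT and the fluoxetine call of Ccng1 in HT stayed past the threshold under every alternative in which they were tested, Fas being below the limit at a mean of at least 100. Other counts of genes that passed moved. For fluoxetine in WT the count of 1 fell to 0 with quantile normalisation, no variance trend, only the groups compared, the exon length slope, and limma or edgeR on 54 libraries. For fluoxetine in HT the count of 2 fell to 1 with edgeR and in libraries with an olfactory bulb level of at least 6. For lithium in WT it was 0 at a mean of at least 100 or an olfactory bulb level of at least 6, and 2 with that level as a covariate. Between the drugs it was, in WT, 1 with quantile normalisation or DESeq2 and 2 with the olfactory bulb covariate instead of 0, and in HT 1 instead of 2 at a mean of at least 100 or an olfactory bulb level of at least 6. For fluoxetine averaged over the genotypes 4 genes passed, against 1 by edgeR or when the exon length slope was fitted, and 2 by limma or DESeq2 on 54 libraries. The cause was not tested, apart from smaller sets of genes or libraries where a setting makes them so. With the olfactory bulb level taken off, the correlation with Cdkn1a was -0.457 for Zmat3, -0.161 for Phlda3, 0.0420 for Trp53inp1, 0.0343 for Mdm2 and -0.0944 for Eda2r, and for Eda2r it was -0.135 with a level of at least 6.

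Leaving out 1 library at a time, the count of genes passed ran from 1 to 2 (fluoxetine HT), 0 to 1 (fluoxetine WT), 2 to 5 (fluoxetine, both genotypes), 3 to 4 (lithium HT), 1 to 2 (lithium WT), 4 to 5 (lithium, both genotypes), 1 to 3 (lithium minus fluoxetine, HT) and 0 to 2 (the same in WT), and it stayed at 0 for genotype, sex and interactions.

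Replicate numbers did not pair the libraries: 68 of 309 same-numbered pairs had a correlation over 0.1, the median was -0.00702 against 0.00364 for other pairs, and 11 of 58 libraries correlated best with their own number. With the replicate block the count for fluoxetine in WT was 0, Ccng1 having an adjusted p of 0.0581, and Trp53inp1 averaged over the genotypes also missed the threshold with fluoxetine (0.0538).

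Counts over all genes moved by more than 1.5 times: 273 to 1306 for fluoxetine in WT (1232 as reported), 789 to 4088 in HT (2134), 229 to 726 for lithium in WT (556), 1061 to 3186 in HT (2345), 228 to 1324 between the drugs in WT (702), 609 to 1857 in HT (1132), 2026 to 5202 for fluoxetine averaged over the genotypes (3918), 0 to 29, 2 to 225 and 2 to 32 for genotype with vehicle, fluoxetine and lithium (8, 102 and 10), 42 to 225 for its mean (78), 0 to 17 for fluoxetine by genotype (7), 17 to 43 for sex (22), and 0 to 54 for lithium by sex (3). Depth limits Fas and Eda2r, with few reads per library.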
